A study of Mus musculus with 24 samples.

Results

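The genes described here were 10 members of the machinery with which phagocytes take up dying cells and altered lipoproteins. They were chosen by name, with earlier results of these data known, from a table of 23930 amplicons read in 24 libraries. Each of the 10 had 1 amplicon. Monocytes carrying CD11b and lacking Ly6G and NK1.1, which the labels call macrophages and the study calls monocytes, were isolated from mouse spleen and profiled without treatment. Cells of the lymphoid and erythroid lineages had been depleted with magnetic beads, and the Ly6C low subset was sorted as high and the Ly6C hi subset as low for the Fc receptor encoded by Fcgr4. Each subset came from 3 genotypes, with 4 libraries in each of the 6 groups. Wild-type (WT) mice were purchased C57BL/6 animals. Slc29a3-/- mice, also C57BL/6, carried a stop codon inserted by CRISPR/Cas9 into Slc29a3, the gene of a lysosomal nucleoside transporter. Slc29a3-/- Tlr7-/- mice carried, beside the loss of Slc29a3, a small CRISPR/Cas9 deletion in Tlr7, the gene of an endosomal receptor for RNA and nucleosides. No group lacked Tlr7 alone. Both mutations were present in every cell of the animal. The ages of the mice sampled were not given in the sources used here. Neither was whether the 4 libraries of a group came from separate mice, and the P values therefore measure the spread between these libraries, which may be technical.

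Phagocytes recognize apoptotic cells through phosphatidylserine exposed on the dying cell. MERTK and AXL are receptor tyrosine kinases of the TAM family that bind it through a bridging ligand such as GAS6, whereas TIM-4, the product of Timd4, binds it directly. The scavenger receptors MARCO, CD36 and MSR1, the mannose receptor encoded by Mrc1, the endosomal and lysosomal glycoprotein CD68 and the secreted scavenger protein CD5L complete the set, and several of these are textbook genes of splenic red pulp and marginal zone macrophages. In the mouse genome (GRCm38, GENCODE vM21), Mertk lies on chromosome 2 from 128698956 to 128802894, Axl on chromosome 7 from 25757273 to 25788705, Gas6 on chromosome 8 from 13465374 to 13494490, Timd4 on chromosome 11 from 46810800 to 46844332 and Marco on chromosome 1 from 120474538 to 120505024. Cd36 lies on chromosome 5 from 17781690 to 17888801, Msr1 on chromosome 8 from 39581685 to 39642673, Mrc1 on chromosome 2 from 14229392 to 14332057, Cd68 on chromosome 11 from 69664213 to 69666153 and Cd5l on chromosome 3 from 87357881 to 87371073. Values are reads of a single amplicon scaled to 1000000 reads per library (RPM), so levels were compared between libraries and not between genes.

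The libraries held an estimated 12311037 to 14572266 reads, so that 3 reads corresponded to between 0.206 and 0.244 RPM. WT replicates 1 to 3 of both subsets carried barcodes 11 to 16 and were the 6 deepest libraries, whereas WT replicate 4 and all mutant libraries carried barcodes 24 to 46. Comparisons of the 10 genes with WT are therefore also given with WT replicate 4 as the only control. Its spread is then assumed to equal that of the other groups. Other genes named below are compared only with all 4 WT libraries, so the barcode sets were not separated for them. Marker genes followed the sort: 4 Ly6C hi monocyte genes summed to between 2319 and 6768 RPM in Ly6C hi libraries and to between 13.6 and 269 RPM in Ly6C low libraries, and 8 Ly6C low monocyte genes summed to between 8334 and 17765 RPM in Ly6C low and to between 1442 and 4242 RPM in Ly6C hi libraries. The amplicons of the targeted genes did not report the mutations and so did not check the genotype labels. Slc29a3 ranged from 127 to 173 RPM in Slc29a3-/- and from 163 to 225 RPM in WT Ly6C hi libraries, and Tlr7 ranged from 259 to 345 RPM in Slc29a3-/- Tlr7-/- Ly6C hi libraries.

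Mertk, Axl, Mrc1, Cd68 and Cd5l were lower in Slc29a3-/- than in WT Ly6C hi monocytes, and for Axl, Mrc1 and Cd68 the Slc29a3-/- level was also below that of Slc29a3-/- Tlr7-/- mice. Among Ly6C low monocytes, Cd36 and Mrc1 were lower in Slc29a3-/- mice than in either other genotype, and Cd5l was higher than in Slc29a3-/- Tlr7-/- mice. For Mertk and Cd5l the difference between genotypes itself differed between the subsets. A gene was tested if it reached 1 RPM in at least 4 of the libraries fitted (12 within a subset, 24 for comparisons between subsets), and it was called at a limma adjusted P under 0.05 over all genes tested. By that filter 7 members were tested within Ly6C hi monocytes, and 9 within Ly6C low monocytes and between subsets. Gas6 was tested in no comparison, and Timd4 and Marco were not tested within Ly6C hi monocytes.

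**Figure D1:**
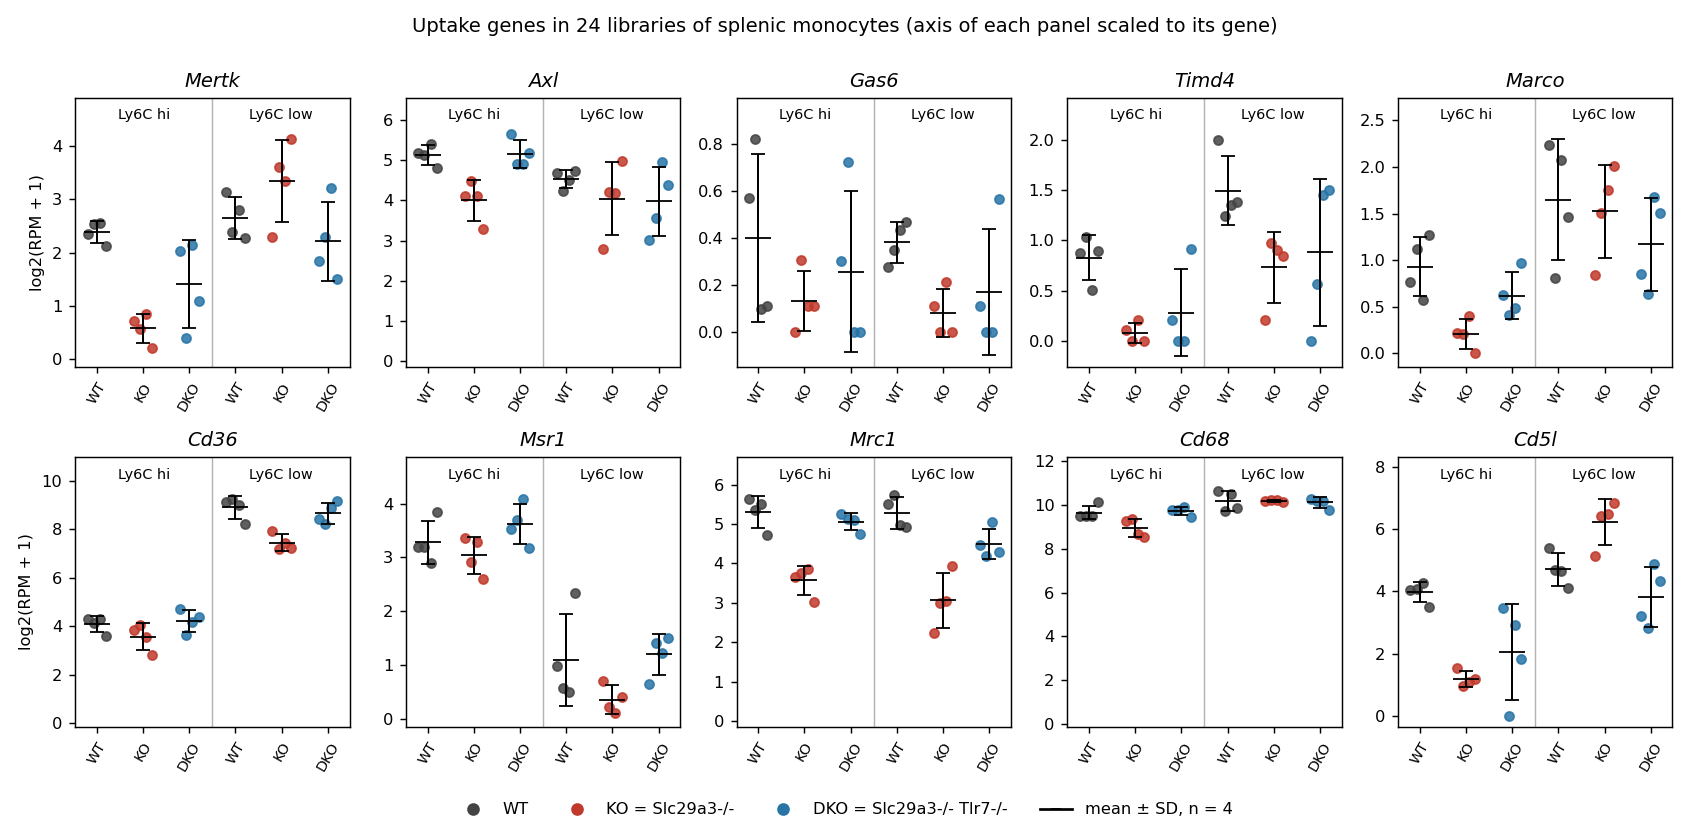
Level of each gene in the 24 libraries as log2(RPM + 1), one panel per gene with its own axis, grouped by subset (left and right of the grey line) and genotype; points are libraries and bars show the mean ± SD of 4. Cd36 was high and Msr1 low in every Ly6C low group, whereas in Slc29a3-/- mice Mertk and Cd5l had their lowest mean in Ly6C hi and their highest mean in Ly6C low monocytes.

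The counts of members are set beside those of all genes. Because the members were chosen with earlier results of these data known, a share above that of all genes does not measure an excess. Between Slc29a3-/- and WT Ly6C hi monocytes, 5 of the 7 tested members were lower, where 17.8% of 10561 genes were called lower, and the median log2 fold change was -1.12 over these 7 and -0.14 over all genes. Groups did not overlap for 5 of these 7, for 33.7% of all genes tested, and for Timd4 and Marco, which were not tested. Between Slc29a3-/- and Slc29a3-/- Tlr7-/- Ly6C hi monocytes, a comparison that shares the Slc29a3-/- libraries with the first, 3 members were lower (10.3% of all genes) with a median of -0.83 (all genes -0.12), and 3 tested members (21.3% of all genes tested) and Marco, not tested, did not overlap. Between Slc29a3-/- Tlr7-/- and WT Ly6C hi monocytes, limma called 0 members (1.46% of all genes in either direction), 2 members had an unadjusted P under 0.05, namely Mertk and Cd5l, and only Cd5l did not overlap (11.8%).

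The Ly6C low monocytes gave fewer called members. Between Slc29a3-/- and WT, 2 of the 9 tested members were lower (2.63% of 10317 genes), the median was -0.49 (all genes 0.00), and 3 tested members (17.7% of all genes tested) and Gas6, not tested, did not overlap. Between Slc29a3-/- and Slc29a3-/- Tlr7-/-, 2 members were lower (0.708%) and 1 was higher (1.22%), the median was 0.07 (all genes 0.08), and 3 did not overlap (11.9%). Between Slc29a3-/- Tlr7-/- and WT, limma called 0 members (8.87%), Mrc1 alone had an unadjusted P under 0.05, and the groups overlapped for all 10 members (12.3% of genes did not overlap). At the thresholds of the study (more than 1.5-fold and P under 0.05 without adjustment) the Ly6C hi comparisons called 5 members for Slc29a3-/- against WT (26.7% of genes), 2 for Slc29a3-/- Tlr7-/- against WT (12.6%) and 5 for Slc29a3-/- against Slc29a3-/- Tlr7-/- (22.3%). The Ly6C low comparisons called 4 (13.2%), 1 (20.7%) and 5 (13.7%) in the same order. Because every library is a sorted bulk sample, fewer cells of a type and less RNA per cell cannot be told apart in any of these values.

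**Figure D2:**
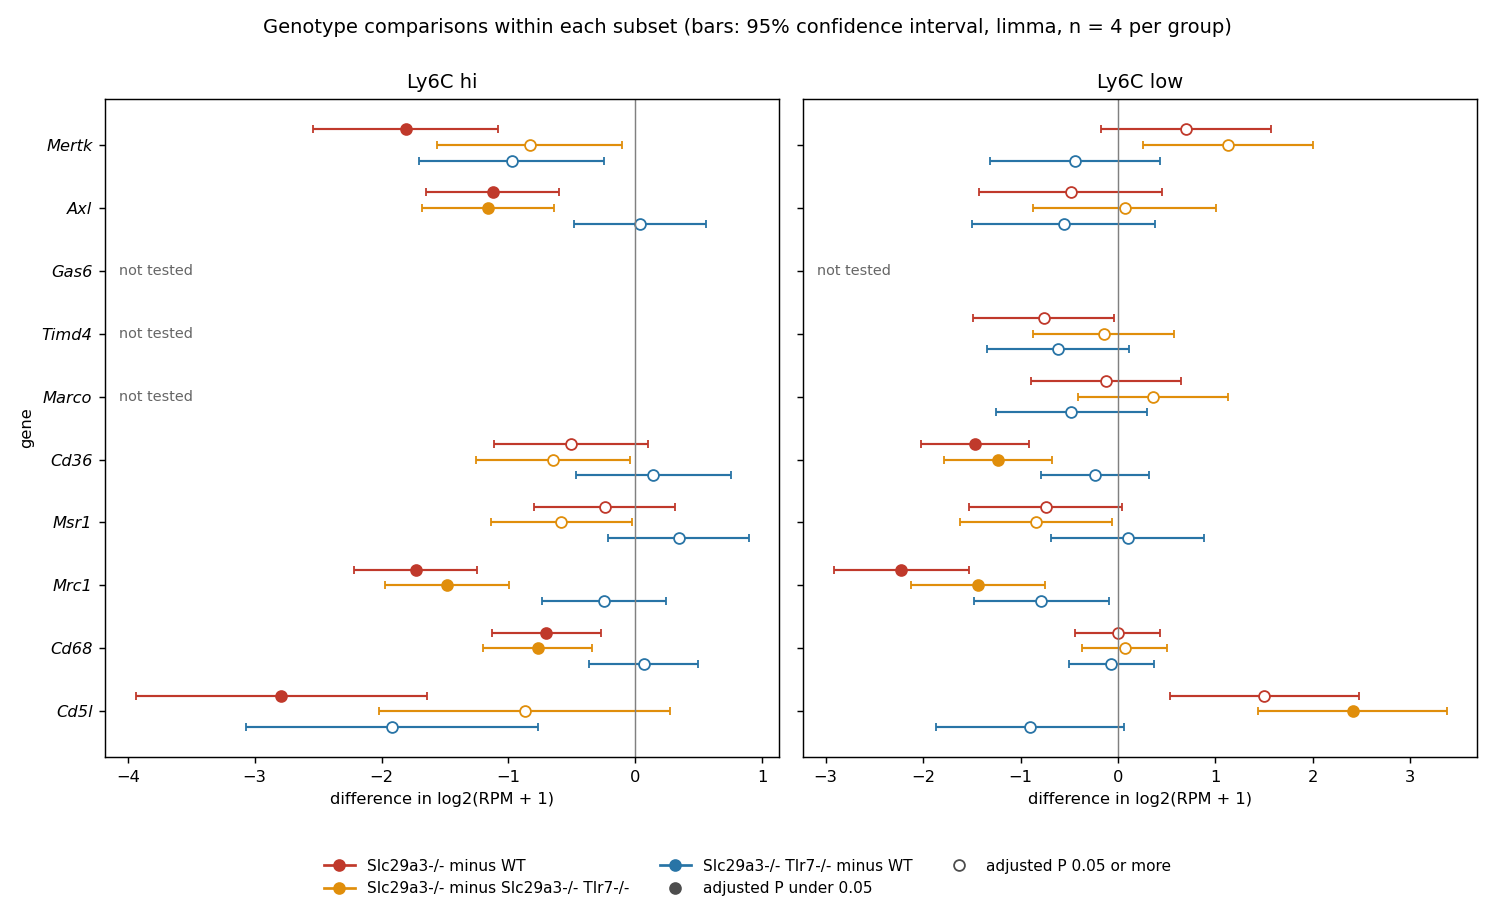
Difference between genotypes in log2(RPM + 1) for each gene, Ly6C hi on the left and Ly6C low on the right, with 95% confidence intervals from limma; filled points had an adjusted P under 0.05 and colours name the pair of genotypes. The 5 filled points for Slc29a3-/- against WT in Ly6C hi monocytes lie between -2.79 and -0.70, and in the Ly6C low panel Cd36 and Mrc1 lie below 0 in both comparisons of Slc29a3-/- mice.

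Mertk, the TAM receptor through which many macrophages engulf apoptotic cells, was at 4.09, 4.79, 4.90 and 3.35 RPM in the WT Ly6C hi libraries, at 0.637, 0.474, 0.793 and 0.159 RPM in the Slc29a3-/- libraries and at 3.08, 0.325, 3.41 and 1.12 RPM in the Slc29a3-/- Tlr7-/- libraries. All 4 Slc29a3-/- libraries lay below all WT libraries, whereas the Slc29a3-/- Tlr7-/- libraries reached from the Slc29a3-/- into the WT range. The Slc29a3-/- values were under the 1 RPM of the filter, which Mertk passed through libraries of the other genotypes, and the lowest was under the level of 3 reads. The difference between Slc29a3-/- and WT was -1.81 ± 0.34 (SE) on the log2(RPM + 1) scale (adjusted P = 0.00187), and against WT replicate 4 alone it was -1.54 (adjusted P = 0.242). The difference between Slc29a3-/- and Slc29a3-/- Tlr7-/- was -0.83 (95% confidence interval -1.56 to -0.11, adjusted P = 0.0968) and was not called.

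Among the Ly6C low libraries Mertk was at 7.76, 4.26, 5.97 and 3.83 RPM in WT, at 3.90, 11.2, 9.23 and 16.5 RPM in Slc29a3-/- and at 2.58, 3.89, 8.29 and 1.84 RPM in Slc29a3-/- Tlr7-/- libraries. Slc29a3-/- replicate 1 was within the WT range and the other 3 were above it. No genotype comparison was called: Slc29a3-/- against WT gave 0.70 (95% confidence interval -0.17 to 1.57), and Slc29a3-/- against Slc29a3-/- Tlr7-/- gave 1.13 (0.26 to 2.01, adjusted P = 0.175). The difference between Slc29a3-/- and WT was larger in Ly6C low than in Ly6C hi monocytes by 2.51 ± 0.55 (adjusted P = 0.00453), and that between Slc29a3-/- and Slc29a3-/- Tlr7-/- by 1.97 ± 0.55 (adjusted P = 0.0261). These were 2 of the interactions called for the members, where 4.72% and 4.44% of 11042 genes had an interaction called in that direction. At the thresholds of the study 4 members each had an interaction (20.2% and 22.6% of genes in either direction), of which Cd36 against WT was the one with a negative sign. Against WT replicate 4 alone the first was 2.61 (adjusted P = 0.2997), and the second lost its call in 6 of the 16 fits that left out 1 library, with an adjusted P of up to 0.0691.

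The promoter of Mertk is printed because the genotype difference of this gene differed between the subsets (RefSeq, GRCm38.p6, + strand, chr2:128698665-128698964, from 250 bases before to 50 bases after the gene's start). Capitals mark GC boxes, GGGCGG or its reverse complement CCGCCC, of which this window holds 4. Of 32851 promoter windows of the same length, 35.7% hold at least 1.
Mertk: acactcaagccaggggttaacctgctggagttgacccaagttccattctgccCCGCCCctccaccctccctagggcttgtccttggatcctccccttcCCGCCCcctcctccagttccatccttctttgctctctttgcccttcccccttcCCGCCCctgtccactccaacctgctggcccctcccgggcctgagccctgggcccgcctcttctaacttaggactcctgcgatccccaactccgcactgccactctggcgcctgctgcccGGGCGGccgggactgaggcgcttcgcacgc
The other 3 motifs searched were not found on either strand of this window. They were the ETS core GAGGAA of PU.1 and Spi-C, the partial Maf site TGCTGA and the partial nuclear receptor site AGGTCA (16.3% of windows). A match is one of letters only and was not tested for binding.

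Axl, the second TAM receptor, was at 35.1, 33.8, 41.4 and 26.9 RPM in WT Ly6C hi libraries, at 16.3, 21.5, 16.2 and 8.82 RPM in Slc29a3-/- and at 49.0, 29.2, 28.8 and 35.4 RPM in Slc29a3-/- Tlr7-/- libraries. Every Slc29a3-/- library lay below every library of the other genotypes. Axl was lower in Slc29a3-/- than in WT by a log2 difference of -1.12 ± 0.24 (adjusted P = 0.00425) and than in Slc29a3-/- Tlr7-/- by -1.16 ± 0.24 (adjusted P = 0.00441). Against WT replicate 4 alone the first was -0.80 (adjusted P = 0.374). Slc29a3-/- Tlr7-/- and WT differed by 0.04, with an interval from -0.49 to 0.56.

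The Ly6C low values of Axl ranged from 17.7 to 25.4 RPM in WT, from 5.96 to 30.5 RPM in Slc29a3-/- and from 7.03 to 29.9 RPM in Slc29a3-/- Tlr7-/- libraries. Both mutant ranges enclosed the WT range, and no genotype comparison was called. Neither interaction was called for Axl (0.64, adjusted P = 0.522, against WT, and 1.23, adjusted P = 0.149, against Slc29a3-/- Tlr7-/-).

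Gas6, the ligand that bridges the TAM receptors to phosphatidylserine, was near the limit of detection. It did not exceed 0.763 RPM in any of the 24 libraries, was at 0 in 7 of them and never reached the 1 RPM of the filter. Its highest Ly6C low value, 0.479 RPM in Slc29a3-/- Tlr7-/- replicate 4, stood apart from 0.081, 0 and 0 RPM in the other libraries of that group. The Ly6C low WT libraries (0.210 to 0.383 RPM) lay above the Slc29a3-/- libraries (0 to 0.158 RPM), beside the 0.206 to 0.244 RPM of 3 reads. With no filter on low values the Gas6 difference of -0.30 was not called (adjusted P = 0.349).

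Timd4, whose product tethers phosphatidylserine and is known from resident macrophages, was also scarce. In Ly6C hi libraries it was at 0.832, 1.04, 0.420 and 0.858 RPM in WT and at no more than 0.159 RPM in Slc29a3-/- mice, 2 of whose libraries were at 0. In Ly6C low libraries it was at 3.01, 1.37, 1.55 and 1.61 RPM in WT, at 0.159, 0.960, 0.868 and 0.794 RPM in Slc29a3-/- and at 0, 0.477, 1.74 and 1.84 RPM in Slc29a3-/- Tlr7-/- mice. Slc29a3-/- and WT did not overlap in either subset, but the Ly6C low difference of -0.76 was not called (adjusted P = 0.224) and the Ly6C hi values were below the filter. With no filter, Timd4 was lower in Slc29a3-/- than in WT Ly6C hi monocytes by -0.74 (adjusted P = 0.0465).

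Marco, a scavenger receptor of marginal zone macrophages that binds bacteria and dying cells, was at 0.694, 1.18, 0.490 and 1.40 RPM in WT Ly6C hi libraries, at 0.159, 0.158, 0.317 and 0 RPM in Slc29a3-/- and at 0.539, 0.325, 0.396 and 0.962 RPM in Slc29a3-/- Tlr7-/- libraries. The Slc29a3-/- values lay below both other genotypes and near or under the level of 3 reads. With no filter, Marco was lower than in WT by -0.73 (adjusted P = 0.0318), and the -0.41 against Slc29a3-/- Tlr7-/- mice was not called (adjusted P = 0.247). In the Ly6C low subset it ranged from 0.755 to 3.70 RPM in WT, from 0.795 to 3.02 RPM in Slc29a3-/- and from 0.556 to 2.21 RPM in Slc29a3-/- Tlr7-/- mice, and these ranges overlapped. Cd209b, Cd209d, Siglec1 and Ccl24, 4 other genes of marginal zone and metallophilic macrophages, summed to between 22.3 and 45.3 RPM in Slc29a3-/-, between 62.3 and 77.3 RPM in WT and between 55.2 and 97.04 RPM in Slc29a3-/- Tlr7-/- Ly6C hi libraries, and their part in the low values of Marco was not tested.

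Cd36, which binds oxidized lipoproteins, long-chain fatty acids and apoptotic cells, was the member that separated the subsets most by log2 difference in WT and in Slc29a3-/- Tlr7-/- mice. In Ly6C low libraries it was at 563, 604, 522 and 298 RPM in WT, at 246, 144, 170 and 148 RPM in Slc29a3-/- and at 341, 295, 476 and 572 RPM in Slc29a3-/- Tlr7-/- mice. The 4 Slc29a3-/- libraries lay below all 8 libraries of the other genotypes. Cd36 was lower in Slc29a3-/- than in WT by -1.47 ± 0.26 (adjusted P = 0.0057) and than in Slc29a3-/- Tlr7-/- by -1.23 ± 0.26 (adjusted P = 0.0215). WT replicate 4 was the lowest WT library, and against it alone the difference was -0.78 (adjusted P = 0.620). The call against Slc29a3-/- Tlr7-/- was lost without Slc29a3-/- replicate 2, 3 or 4 or Slc29a3-/- Tlr7-/- replicate 3 (adjusted P of up to 0.104).

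In the Ly6C hi subset Cd36 ranged from 11.2 to 18.7 RPM in WT, from 6.04 to 15.8 RPM in Slc29a3-/- and from 11.53 to 24.95 RPM in Slc29a3-/- Tlr7-/- libraries. The ranges overlapped and the difference of -0.51 between Slc29a3-/- and WT was not called (95% confidence interval -1.12 to 0.10). The interactions were not called either (-0.96, adjusted P = 0.145, and -0.58, adjusted P = 0.373).

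Msr1, the class A scavenger receptor for modified lipoproteins, had the opposite distribution over the subsets. It ranged from 6.44 to 13.4 RPM in WT, from 5.08 to 9.24 RPM in Slc29a3-/- and from 8.02 to 15.999 RPM in Slc29a3-/- Tlr7-/- Ly6C hi libraries, and in Ly6C low libraries from 0.421 to 4.06, from 0.079 to 0.636 and from 0.565 to 1.84 RPM in the same order. No genotype comparison was called in either subset, and the interval of the difference between Slc29a3-/- and WT reached from -0.80 to 0.31 in Ly6C hi and from -1.52 to 0.04 in Ly6C low monocytes. WT replicate 4 held the highest value of its group in both subsets.

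Mrc1, the mannose receptor that clears glycoproteins, was the 1 member called lower in Slc29a3-/- than in WT mice in both subsets. In Ly6C hi libraries it was at 48.8, 40.1, 44.5 and 25.2 RPM in WT, at 11.54, 12.6, 13.5 and 7.15 RPM in Slc29a3-/- and at 37.2, 34.0, 33.1 and 26.1 RPM in Slc29a3-/- Tlr7-/- mice. The Slc29a3-/- libraries did not overlap either other genotype. The log2 difference was -1.73 ± 0.23 from WT (adjusted P = 0.000223) and -1.48 ± 0.23 from Slc29a3-/- Tlr7-/- mice (adjusted P = 0.000528). Against WT replicate 4 alone the first was -1.14 (adjusted P = 0.128), and Slc29a3-/- Tlr7-/- and WT differed by -0.25 (95% confidence interval -0.73 to 0.24).

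In Ly6C low libraries Mrc1 was at 44.6, 52.3, 30.6 and 29.2 RPM in WT, at 3.74, 7.04, 7.34 and 14.4 RPM in Slc29a3-/- and at 21.2, 17.2, 32.2 and 18.5 RPM in Slc29a3-/- Tlr7-/- mice. All Slc29a3-/- libraries lay below all others, and 3 of the 4 Slc29a3-/- Tlr7-/- libraries lay below the WT range. Mrc1 was lower in Slc29a3-/- than in WT by -2.22 ± 0.32 (adjusted P = 0.00133), with -1.85 from WT replicate 4 alone (adjusted P = 0.316), and than in Slc29a3-/- Tlr7-/- by -1.44 ± 0.32 (adjusted P = 0.0336). The last call was lost when any of Slc29a3-/- replicates 1 to 3 or Slc29a3-/- Tlr7-/- replicate 3 was left out (adjusted P of up to 0.120). Slc29a3-/- Tlr7-/- mice differed from WT by -0.79 (adjusted P = 0.126), which was not called.

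The promoter of Mrc1 is shown because the gene was lower in Slc29a3-/- mice in both subsets (RefSeq, GRCm38.p6, + strand, chr2:14229164-14229463). Capitals mark the ETS core GAGGAA or its reverse complement TTCCTC, found 3 times here and in 28.3% of promoter windows, and 1 GC box written CCGCCC.
Mrc1: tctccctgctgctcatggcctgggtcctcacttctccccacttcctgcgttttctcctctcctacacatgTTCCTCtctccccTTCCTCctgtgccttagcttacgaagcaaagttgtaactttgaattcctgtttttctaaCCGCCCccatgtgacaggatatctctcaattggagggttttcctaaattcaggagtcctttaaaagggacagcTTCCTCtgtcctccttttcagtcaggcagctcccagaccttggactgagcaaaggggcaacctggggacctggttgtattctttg

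Cd68, a glycoprotein of endosomes and lysosomes used as a general phagocyte marker, was at 732, 719, 727 and 1119.8 RPM in WT Ly6C hi libraries, at 612, 653, 411 and 370 RPM in Slc29a3-/- and at 882, 866, 959 and 703 RPM in Slc29a3-/- Tlr7-/- libraries. The Slc29a3-/- libraries lay below both other genotypes. Cd68 was lower in Slc29a3-/- than in WT by -0.70 ± 0.20 (adjusted P = 0.0181) and than in Slc29a3-/- Tlr7-/- by -0.77 ± 0.20 (adjusted P = 0.0151). Both calls were lost when Slc29a3-/- replicate 3 or 4 was left out (adjusted P of 0.0511 to 0.0611) and when Cd68 was fitted with no filter on low values (adjusted P = 0.0809 and 0.0785), and the difference from WT replicate 4 alone was -1.17 (adjusted P = 0.0873).

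Ly6C low levels of Cd68 ranged from 841 to 1625 RPM in WT, from 1116 to 1191 RPM in Slc29a3-/- and from 876 to 1251 RPM in Slc29a3-/- Tlr7-/- libraries. The Slc29a3-/- libraries fell inside the WT range, and the difference was 0.00 with an interval from -0.44 to 0.43. The interactions of 0.70 (adjusted P = 0.153) and 0.84 (adjusted P = 0.0789) were not called.

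Cd5l, a secreted scavenger protein of tissue macrophages that dampens lipid synthesis and protects cells from apoptosis, was at 15.6, 15.96, 18.4 and 10.4 RPM in WT Ly6C hi libraries, at 1.91, 0.949, 1.11 and 1.27 RPM in Slc29a3-/- and at 10.2, 0, 6.65 and 2.57 RPM in Slc29a3-/- Tlr7-/- libraries. Both mutant genotypes lay below the WT range, with Slc29a3-/- Tlr7-/- replicate 2 at 0. The log2 difference from WT was -2.79 ± 0.54 for Slc29a3-/- (adjusted P = 0.00213) and -1.92 ± 0.54 for Slc29a3-/- Tlr7-/- mice (adjusted P = 0.0723), the second of which was not called. Against WT replicate 4 alone the first was -2.32 (adjusted P = 0.243).

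The order of the genotypes was another in the Ly6C low subset, where Cd5l was at 41.5, 24.7, 24.4 and 16.4 RPM in WT, at 34.3, 84.6, 88.3 and 114 RPM in Slc29a3-/- and at 8.32, 6.04, 28.8 and 19.2 RPM in Slc29a3-/- Tlr7-/- libraries. Slc29a3-/- replicate 1 lay inside the WT range, and all 4 Slc29a3-/- libraries lay above the Slc29a3-/- Tlr7-/- libraries. Cd5l was higher in Slc29a3-/- than in Slc29a3-/- Tlr7-/- mice by 2.41 ± 0.45 (adjusted P = 0.0108), a call that was lost without Slc29a3-/- replicate 2 or 4 (adjusted P of 0.0508 and 0.0586). Against WT the difference was 1.503 (95% confidence interval 0.54 to 2.47) and was not called (adjusted P = 0.0729).

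The Slc29a3-/- difference of Cd5l was larger in Ly6C low than in Ly6C hi monocytes by 4.29 ± 0.76 against WT (adjusted P = 0.00083) and by 3.28 ± 0.76 against Slc29a3-/- Tlr7-/- mice (adjusted P = 0.00798), 2 contrasts that share the Slc29a3-/- libraries. Both calls held in each of the 16 fits that left out 1 library, with values from 4.08 to 4.65 and from 2.81 to 3.97. Against WT replicate 4 alone the first was 4.42 (adjusted P = 0.178).

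The promoter of Cd5l is shown because of the members tested it had the largest interactions (RefSeq, GRCm38.p6, + strand, chr3:87357631-87357930). Capitals mark 1 ETS core, written TTCCTC, and 2 partial Maf sites, TGCTGA and its reverse complement TCAGCA. These start 54 and 46 bases before the gene's start and face each other across 2 bases. At least 1 such partial site is in 19.5% of promoter windows, and windows with a facing pair were not counted.
Cd5l: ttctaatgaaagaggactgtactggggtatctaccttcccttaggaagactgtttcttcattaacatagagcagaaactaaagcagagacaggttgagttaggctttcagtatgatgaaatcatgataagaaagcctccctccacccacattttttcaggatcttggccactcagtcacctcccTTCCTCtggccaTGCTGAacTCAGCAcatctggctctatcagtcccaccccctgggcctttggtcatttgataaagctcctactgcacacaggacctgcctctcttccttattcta

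The subset itself was then compared within each genotype, for which Ly6C low and Ly6C hi libraries were fitted together. Cd36 was higher in Ly6C low monocytes by a log2 difference of 4.82 ± 0.28 in WT, 3.87 ± 0.28 in Slc29a3-/- and 4.45 ± 0.28 in Slc29a3-/- Tlr7-/- mice, and Msr1 was lower by -2.18 ± 0.33, -2.68 ± 0.33 and -2.42 ± 0.33, with an adjusted P of at most 1.04e-05 in these 6 tests. The mean of Cd36 was 30.5 times as high in Ly6C low as in Ly6C hi monocytes of WT mice. In WT mice these 2 were the only members called (1 higher, where 10.5% of 11042 genes were called higher, and 1 lower, where 19.1% were), and 4 members did not overlap (33.8%), Axl and Timd4 being the others. The thresholds of the study called 4 members in WT (29.3%), 7 in Slc29a3-/- (37.6%) and 5 in Slc29a3-/- Tlr7-/- mice (31.6%). From WT replicate 4 alone, Cd36 kept its call and Msr1 did not (-1.51, adjusted P = 0.112).

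In Slc29a3-/- mice 5 members were higher in Ly6C low monocytes (22.1% of all genes) and Msr1 was lower (19.1%), with 6 members not overlapping (48.7%). Beside Cd36, the higher members were Mertk by 2.77 ± 0.39 (adjusted P = 2.47e-06), Marco by 1.32 ± 0.30 (adjusted P = 0.000909), Cd68 by 1.23 ± 0.21 (adjusted P = 3.61e-05) and Cd5l by 5.03 ± 0.53 (adjusted P = 2.91e-08). Marco failed the filter within Ly6C hi monocytes and passed it here through Ly6C low libraries, the subset in which it was called higher. Its Slc29a3-/- Ly6C hi values of 0.159, 0.158, 0.317 and 0 RPM were near or under the level of 3 reads. The mean level of Cd5l was 61.3 times as high in Ly6C low as in Ly6C hi monocytes of Slc29a3-/- mice, and that of Mertk 19.8 times. These ratios divide by low Ly6C hi means, 1.31 RPM for Cd5l and 0.516 RPM for Mertk. On the fitted log2(RPM + 1) scale the folds were 32.7 and 6.80. In WT mice the ratios of means were 1.77 for Cd5l and 1.27 for Mertk, and in Slc29a3-/- Tlr7-/- mice 3.22 and 2.09.

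In Slc29a3-/- Tlr7-/- mice Cd36 and Cd5l were higher (11.8% of all genes) and Msr1 and Axl lower (21.4%) in Ly6C low monocytes, with 2 members not overlapping (24.7%). Cd5l differed by 1.75 ± 0.53 (adjusted P = 0.0133) and Axl by -1.18 ± 0.38 (adjusted P = 0.0175). Neither had groups that were free of overlap, and both calls depended on single libraries: Cd5l lost its call without Ly6C hi replicate 2 (1.07) or Ly6C low replicate 3 (1.39), and Axl without Ly6C hi replicate 1 or Ly6C low replicate 1 or 2 (adjusted P of up to 0.0798). Mrc1 and Timd4 were called between the subsets in none of the genotypes, the differences of Mrc1 being -0.02, -0.51 and -0.56 and those of Timd4 0.67, 0.65 and 0.60 in WT, Slc29a3-/- and Slc29a3-/- Tlr7-/- mice.

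**Figure D3:**
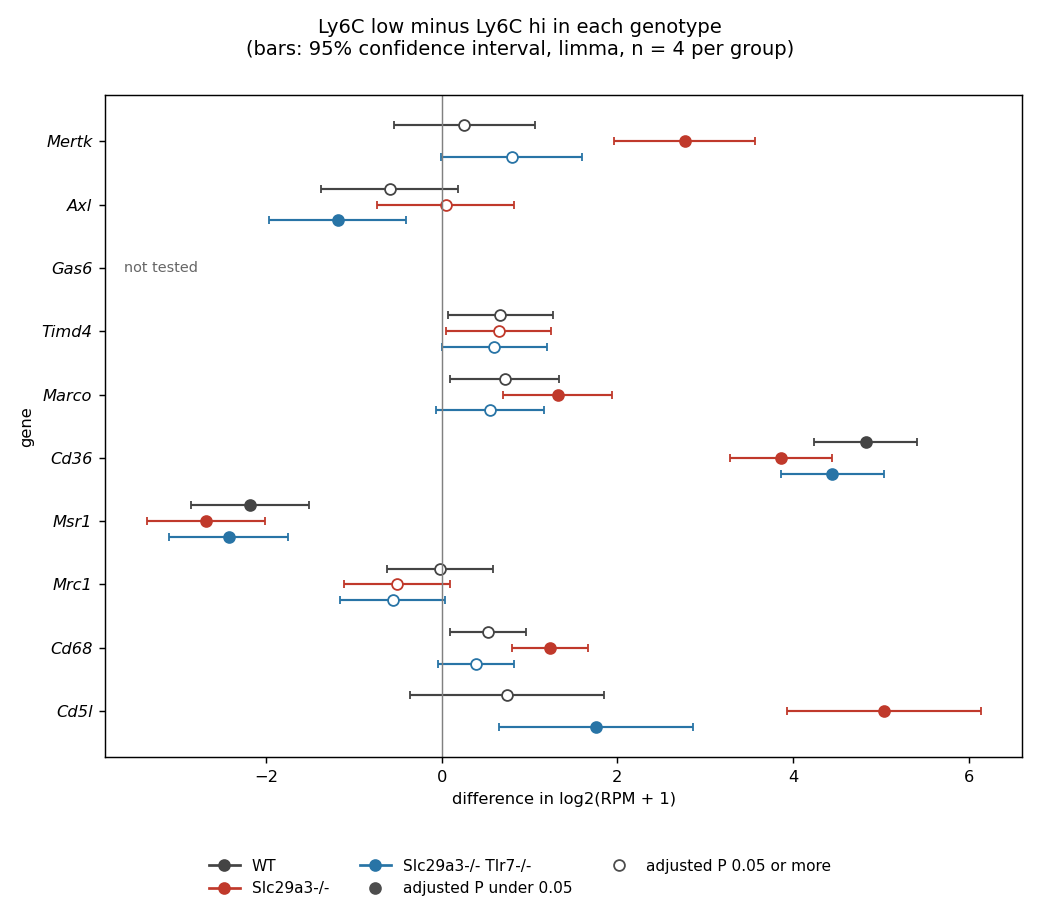
Difference in log2(RPM + 1) between Ly6C low and Ly6C hi monocytes for each gene and genotype, with 95% confidence intervals from limma; filled points had an adjusted P under 0.05. Cd36 lies between 3.87 and 4.82 and Msr1 between -2.68 and -2.18 in all 3 genotypes, whereas Mertk and Cd5l have their highest values, 2.77 and 5.03, in Slc29a3-/- mice.

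For Mertk and Cd5l, Ly6C low Slc29a3-/- was highest and Ly6C hi Slc29a3-/- lowest, at means of 10.2 ± 5.22 and 0.516 ± 0.271 RPM for Mertk and of 80.4 ± 33.4 and 1.31 ± 0.42 RPM for Cd5l (SD, n = 4). The neighbouring Mertk means of Ly6C low WT (5.45 ± 1.79 RPM), Ly6C hi WT (4.28 ± 0.72 RPM) and Ly6C low Slc29a3-/- Tlr7-/- (4.15 ± 2.89 RPM) lay within their spreads. For Mrc1 the 2 WT groups (39.6 ± 10.3 and 39.2 ± 11.2 RPM) and Ly6C hi Slc29a3-/- Tlr7-/- (32.6 ± 4.69 RPM) lay within their spreads, followed by Ly6C low Slc29a3-/- Tlr7-/- (22.3 ± 6.83 RPM), and the Slc29a3-/- groups came last (11.2 ± 2.81 and 8.12 ± 4.48 RPM).

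Genes that act with the members were counted from 6 lists, which were also chosen with earlier results of these data known. Their counts and those of marker genes below stand beside all genes tested. Of 10561 in Ly6C hi monocytes, 1877 were lower and 1072 higher in Slc29a3-/- than in WT, and 1091 and 1059 than in Slc29a3-/- Tlr7-/- mice. Of 10317 in Ly6C low monocytes, these counts were 271 and 208, and 73 and 126. The first held 6 genes of TAM receptors and of molecules that bridge apoptotic cells to phagocytes, not all of them through TAM receptors. Of these 5 were tested, and between Slc29a3-/- and WT Ly6C hi monocytes 1 was higher and 2 were lower (median -0.28, all genes -0.14). The lower ones were the phosphatidylserine bridge Mfge8 (-0.84) and Thbs1 (-4.24), a thrombospondin that links apoptotic cells to CD36, and the higher one was Anxa1 (1.06). Thbs1 spread widely over the WT Ly6C hi libraries, from 116 to 863 RPM, against 17.4 to 41.8 RPM in Slc29a3-/- libraries. Against Slc29a3-/- Tlr7-/- mice, Mfge8 (-0.71), Thbs1 (-2.72) and Lgals3 (-0.75) were lower and Anxa1 (1.31) was higher. Pros1, the other TAM ligand, was not called (0.28 and -0.66), and Tyro3, the third TAM receptor, did not exceed a group mean of 0.505 RPM and was not tested. None of the 5 was called by limma between genotypes in the Ly6C low subset, where 2 of them had an unadjusted P under 0.05 for Slc29a3-/- against WT, 3 for Slc29a3-/- Tlr7-/- against WT and 1 between the mutants.

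Among 14 further receptors for apoptotic cells 10 were tested, and in Ly6C hi monocytes 3 were lower and 1 was higher in Slc29a3-/- than in WT mice (median -0.35): Cd14 (-2.60), Lrp1 (-0.82) and Cd300a (-0.66) against the integrin Itgb3 (0.84). Against Slc29a3-/- Tlr7-/- mice 4 were lower, namely Stab1 (-1.43), Havcr2 (-1.08), Lrp1 (-1.03) and Cd300a (-0.84). The integrin gene Itgb3 was in addition higher in Ly6C low monocytes of Slc29a3-/- mice than of WT (2.63) and of Slc29a3-/- Tlr7-/- mice (0.97), and Havcr2 was lower than in Slc29a3-/- Tlr7-/- mice (-0.72). Slc29a3-/- Tlr7-/- Ly6C low monocytes differed from WT in Itgb3 (1.66), Cd300lb (1.01), Itgb5 (0.66), Cd300lf (-1.40) and Cd14 (-2.005).

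Of 17 other scavenger and lectin receptors, 16 were in the table and 9 were tested in Ly6C hi monocytes, where 4 were lower and 1 was higher in Slc29a3-/- than in WT mice (median -0.25): Cd163 (-1.87), Cd209a (-0.96), Clec7a (-0.94) and Siglec1 (-0.93) against Ly75 (1.39). Against Slc29a3-/- Tlr7-/- mice Cd209a (-1.72), Siglec1 (-0.88) and Clec7a (-0.67) were lower and Ly75 (2.23) was higher. Cd163, the haemoglobin scavenger receptor, was the only pathway gene called between Slc29a3-/- Tlr7-/- and WT Ly6C hi monocytes (-1.33). In the Ly6C low subset 11 were tested, and Cd163 (-2.99) and Clec7a (-1.56) were lower and Scarf2 (2.11) higher in Slc29a3-/- than in WT mice. Against Slc29a3-/- Tlr7-/- mice Cd209a (-1.58) and Clec7a (-0.96) were lower and Scarf2 (2.22) was higher. Scarf2 passed the filter only through the Slc29a3-/- libraries (1.99 to 7.15 RPM) in which it was then called higher. It did not exceed 0.351 RPM in WT and 0.397 RPM in Slc29a3-/- Tlr7-/- Ly6C low libraries, so its calls are not independent of the filter. Slc29a3-/- Tlr7-/- mice were below WT in Cd163 (-1.86) and Clec7a (-0.60). Scarb1 was called in none of these comparisons (-0.30 to 0.07).

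After uptake, lipid of the engulfed cell is sensed by LXR and PPAR nuclear receptors and exported. Of 13 genes of this list, 6 were lower (17.8% of all genes) and 0 higher in Slc29a3-/- than in WT Ly6C hi monocytes (median -0.39). Against Slc29a3-/- Tlr7-/- mice 7 were lower (10.3% of all genes, median -0.40). The cholesterol exporter Abca1 was among both sets (-1.19 and -1.16), whereas Nr1h3, which encodes LXR alpha, and Pparg were in neither (0.43 and -0.30 against WT). Against WT, limma called 0 of the 13 in Ly6C low monocytes of Slc29a3-/- mice (3 had an unadjusted P under 0.05), and Nr1h3 was higher there than in Slc29a3-/- Tlr7-/- mice (1.28). Of the engulfment machinery 10 of 14 genes were tested, and only Elmo2 (-0.51, Slc29a3-/- against Slc29a3-/- Tlr7-/- Ly6C hi monocytes) and Crkl (0.96, Slc29a3-/- Tlr7-/- against WT Ly6C low monocytes) were called between genotypes. Of 5 tested genes that check uptake, Siglece (0.73) and Cd24a (1.45) were higher in Slc29a3-/- than in WT Ly6C hi monocytes, Cd24a was higher than in Slc29a3-/- Tlr7-/- mice in both subsets (2.14 and 1.55), Siglece was higher in Ly6C low monocytes against WT (2.13) and against Slc29a3-/- Tlr7-/- mice (1.96), and Sirpa was called in none of the genotype comparisons.

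Between the subsets of WT mice, 7 of the 13 nuclear receptor and lipid genes were higher in Ly6C low monocytes (10.5% of all genes) and 3 were lower (19.1%). Their median was 0.80 (all genes -0.07), and Pparg (4.56), Abca1 (1.58) and Nr1h3 (1.56) were among the higher ones. Pparg and Abca1 were higher in Ly6C low monocytes of Slc29a3-/- (4.91 and 2.61) and Slc29a3-/- Tlr7-/- mice (4.33 and 1.61) too. Of the list of TAM receptors and bridging molecules, Thbs1 (-4.48), Anxa1 (-2.23), Lgals3 (-0.83) and Mfge8 (-0.71) were lower in WT Ly6C low monocytes. The TAM ligand Pros1 was not called. Of the further apoptotic cell receptors Havcr2 (2.38), Itgav (0.94), Itgb5 (0.91) and Cd300a (0.72) were higher there. Of the scavenger and lectin receptors 5 were lower, Siglec1 (-3.05), Ly75 (-1.87), Scarf1 (-1.25), Cd209a (-1.21) and Clec7a (-1.06), and Mrc2 (2.48) was higher. Mrc2 passed the filter only through Ly6C low libraries and did not exceed 0.792 RPM in any Ly6C hi library.

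Genes whose pattern over the 24 libraries was most like that of a member were taken by Pearson's r of log2(RPM + 1) among genes with a mean of at least 10 RPM, as a description without a test. All points share their libraries and depth, and subset differences alone can give a high r. Mertk was most like Cd5l (r = 0.94), Cadm1 (0.93) and C1qb (0.89), and Cd5l was most like C1qb (0.94), Cadm1 (0.93) and Fcna (0.87). Marco also had C1qb (0.83) and Fcna (0.81) among its 3. Cd36 was most like Slc12a2, Ankdd1a and Adrbk2 (0.97 to 0.98), Msr1 like Dpy19l1, Arhgef37 and Tiam1 (0.96 to 0.97), Mrc1 like Cdk5, Nlrp3 and Zdhhc8 (0.85 to 0.87) and Cd68 like Cd300a, Inpp5d and Slc41a1 (0.90 to 0.92). Axl had Adap2, Sdhaf4 and Eogt (0.82 to 0.84), and Timd4 had S100pbp, Nsfl1c and Slc25a38 (0.82 to 0.83). Within the 12 Ly6C hi libraries the r of Mertk and Cd5l was 0.96, and within the 12 Ly6C low libraries it was 0.82.

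**Figure D4:**
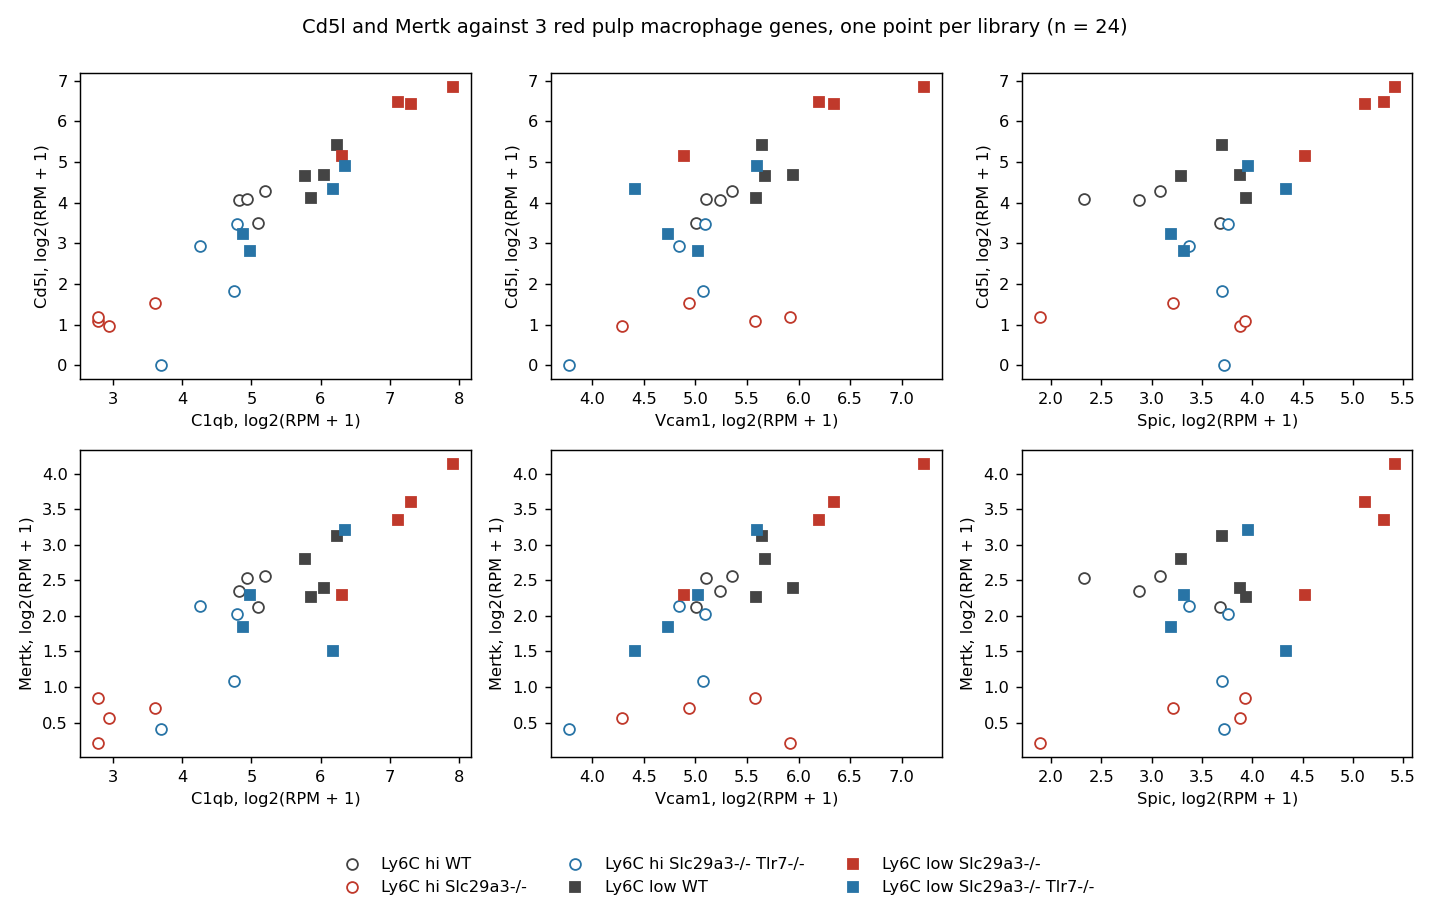
Cd5l (top) and Mertk (bottom) against C1qb, Vcam1 and Spic, 3 of the 10 red pulp macrophage genes listed, as log2(RPM + 1) with 1 point per library. Open circles are Ly6C hi, filled squares Ly6C low, and colours name the genotype. The Slc29a3-/- Ly6C hi libraries lie at the low end of the C1qb axis only. On the Vcam1 and Spic axes their range encloses that of the WT Ly6C hi libraries. Of the 4 Slc29a3-/- Ly6C low libraries, 3 lie at the high end of the C1qb and Vcam1 axes and all 4 at that of the Spic axis. Over the 24 libraries Vcam1 and Spic had an r of 0.66 and 0.55 with Cd5l and of 0.66 and 0.50 with Mertk. Hmox1 and Slc40a1, listed but not drawn, had an r of 0.24 and 0.18 with Cd5l and of 0.13 and 0.10 with Mertk. Cd163, also listed, was lower in Slc29a3-/- than in WT Ly6C low libraries.

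Markers of other cells moved with the groups in which members differed, and their part in the results was not tested. In Ly6C low libraries 10 red pulp macrophage genes summed to between 871 and 1313 RPM in Slc29a3-/-, between 627 and 696 RPM in WT and between 547 and 1675 RPM in Slc29a3-/- Tlr7-/- libraries. Hmox1 had the highest mean of the 10 in every group of both subsets and so weighed most in such sums. It ranged from 436 to 504, from 328 to 362 and from 190 to 1431 RPM in the same order, with 1431 RPM in replicate 4. Of the 8 red pulp genes tested, 3 were higher and 1 (Cd163) lower in Slc29a3-/- than in WT mice, and 3 were higher than in Slc29a3-/- Tlr7-/- mice. C1qb, a complement gene of macrophages, was at 74.2, 65.5, 53.5 and 57.3 RPM in WT and at 78.6, 158, 139 and 241 RPM in Slc29a3-/- Ly6C low libraries (1.19, adjusted P = 0.0731), with replicate 1 lowest as it was for Mertk and Cd5l. Spic, a transcription factor of red pulp macrophages, was higher in Slc29a3-/- than in WT (1.39, adjusted P = 0.0114) and than in Slc29a3-/- Tlr7-/- mice (1.39, adjusted P = 0.016), whereas Cd163 was at 0 to 1.34 RPM in the same 4 libraries and the amplicons of C1qa and C1qc did not exceed 0.080 and 0.874 RPM in any library. Although TER-119+ cells had been depleted, amplicons of 3 erythroid genes summed to between 34.0 and 39.6 RPM in Slc29a3-/- Ly6C low libraries and to no more than 5.60 RPM in any other library.

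In the Ly6C hi subset 8 neutrophil genes summed to between 42368 and 81478 RPM in Slc29a3-/- libraries, between 13758 and 21437 RPM in WT and between 6174 and 21569 RPM in Slc29a3-/- Tlr7-/- libraries, although Ly6G+ cells had been depleted, and 6 of the 8 were higher and 2 lower than in WT mice. Conventional dendritic cell genes (6) summed to between 15.1 and 37.004 RPM in Slc29a3-/-, between 75.9 and 102.7 RPM in WT and between 86.8 and 112 RPM in Slc29a3-/- Tlr7-/- Ly6C hi libraries, and 5 of 5 tested were lower than in either other genotype, as Axl and Mrc1 were. In Ly6C low libraries they summed to between 13.4 and 26.7 RPM in Slc29a3-/-, between 34.98 and 69.4 RPM in WT and between 40.7 and 71.0 RPM in Slc29a3-/- Tlr7-/- mice, and of 5 tested 3 were lower than in WT and 4 lower than in Slc29a3-/- Tlr7-/- mice, as Mrc1 and Cd36 were. Plasmacytoid dendritic cell genes (4) summed to between 9.91 and 19.5 RPM in Slc29a3-/-, between 47.2 and 85.7 RPM in WT and between 28.9 and 55.7 RPM in Slc29a3-/- Tlr7-/- Ly6C hi libraries. Of the 8 red pulp genes tested, 3 were lower, 0 higher and 5 not called in Slc29a3-/- against WT Ly6C hi monocytes. Among the lower ones was C1qb (-1.99, adjusted P = 0.000193), which lay between 5.87 and 11.1 RPM against 27.3 to 35.5 RPM. The means of Spic, Vcam1, Hmox1 and Slc40a1 were higher in Slc29a3-/- than in WT mice. The 10 red pulp genes summed to between 352 and 481 RPM in Slc29a3-/- and between 397 and 529 RPM in WT Ly6C hi libraries, which overlapped. The sums of B cell and of T and NK cell genes did not overlap between Slc29a3-/- and WT Ly6C hi libraries. In Ly6C hi libraries 4 B cell genes summed to between 14.5 and 20.8 RPM in Slc29a3-/-, between 30.3 and 38.7 RPM in WT and between 15.4 and 38.1 RPM in Slc29a3-/- Tlr7-/- mice, and in Ly6C low libraries to between 36.3 and 57.8, between 32.7 and 40.6 and between 16.3 and 32.9 RPM in the same order. In Ly6C hi libraries 5 T and NK cell genes summed to between 6.19 and 20.1 RPM in Slc29a3-/-, between 49.8 and 268 RPM in WT and between 3.74 and 271 RPM in Slc29a3-/- Tlr7-/- mice, and in Ly6C low libraries to between 4.69 and 13.3, between 18.5 and 52.8 and between 0.238 and 7.84 RPM. Over all 24 libraries, 4 platelet genes summed to between 6.97 and 55.7 RPM and 4 endothelial genes to no more than 5.61 RPM. Siglec1, Cd163, Cd209a, Cd209b and Stab2 are in both a marker list and a list of receptors.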

How the data were processed

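Total RNA of sorted splenic monocytes was extracted with RNeasy kits, and 1 ng with an RNA integrity number over 7.3 was made into Ion AmpliSeq Transcriptome libraries, which read 1 amplicon per gene. The authors deposited 1 table of RPM values (reads scaled to 1000000 per library) of 23930 amplicons, on mm10 per the labels. Their methods name Cutadapt, STAR, HTSeq and DESeq2, but which step wrote the table was not given in the sources used here. Zero is coded as 0.0001 and was set back to 0, and 27 gene names turned into dates were repaired from the amplicon names.

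Depth was estimated from the even steps between low RPM values. Genes that reached 1 RPM in 4 or more libraries were fitted as log2(RPM + 1) with limma 3.58.1 in R 4.3.3 (eBayes with intensity trend, Benjamini-Hochberg adjustment over all genes tested, called at an adjusted P under 0.05). Such fold changes understate the change of low genes. Genotypes were compared within each subset (12 libraries), and subsets and interactions over all 24. The 10 genes, 6 pathway lists and 12 marker lists were chosen with earlier results of these data known. Of 70 pathway and 70 marker entries, 3 and 6 were not in the table and were not analysed here. Named genes were the members, 15 chosen pathway genes and the called genes of lists with few calls, examples from the marker lists, and the 3 genes most correlated with each member. Promoters came from RefSeq (GRCm38.p6), which matched 9 of 10 members, all except Msr1.

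Replicate numbers were checked as pairs by correlating deviations from group means. Only between the WT subsets were 4 of 4 pairs above 0.1 (r = 0.26 to 0.62), and elsewhere at least 1 pair was at or under 0.1. Between the WT subsets the best match had the same number in 2 of 4 pairs. Replicate 4 of both WT subsets also differed from replicates 1 to 3 in its barcode set, so this r cannot show that the numbers pair mice. Alternatives were TMM and RLE scaling, no filter, a pseudocount of 0.1 RPM, the thresholds of the study, a replicate block, WT replicate 4 alone, and leaving out each library in turn. Figures were drawn with Python 3.11.15, pandas 2.3.3, numpy 2.4.6 and matplotlib 3.10.9.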

Additional observations from a re-analysis of the deposited data

Results flagged for a closer look

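Single libraries stood far from the other 3 of their group in 4 of 60 combinations of gene and group examined, by a gap to the nearest library that, relative to the range of the group, exceeded the critical value of Dixon for 4 samples. Chance alone flags about 1 in 20 groups. Gas6 was at 0.479 RPM in Slc29a3-/- Tlr7-/- Ly6C low replicate 4. Timd4 was at 3.005 RPM in WT Ly6C low replicate 1. Msr1 was at 4.062 RPM in WT Ly6C low replicate 4, and Cd68 was at 1119.76 RPM in WT Ly6C hi replicate 4.

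Differences between genotypes that were not the same in the subsets were found by an interaction term for Mertk and Cd5l. For Slc29a3-/- against WT, the difference in Ly6C low minus that in Ly6C hi monocytes was 2.51 for Mertk and 4.29 for Cd5l on the log2(RPM + 1) scale. Against Slc29a3-/- Tlr7-/- mice it was 1.97 for Mertk and 3.28 for Cd5l.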

How the results depend on the processing

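The 29 calls of members in the 11 comparisons were recomputed 449 times, of which 403 kept the call, 46 lost it and 0 reversed direction. All 29 held under TMM scaling, RLE scaling and the thresholds of the study. Of the losses 25 came from leaving out 1 library, 8 from using no filter, 10 (of 11 values) from WT replicate 4 alone, 2 from the replicate block and 1 from a pseudocount of 0.1 RPM, which ended the interaction of Cd5l against Slc29a3-/- Tlr7-/- mice (adjusted P = 0.128). The cause of a lost call was not tested. The fit with 1 WT library differs from the main fit both in the number and in the barcodes of its WT libraries. Gas6 was left out by the filter and, with no filter, was called in none of the 11 comparisons. A test on counts rebuilt from the RPM steps had been planned and was not run.

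Scaling moved the median of all genes from -0.14 to -0.02 (TMM) and -0.03 (RLE) for Slc29a3-/- against WT in Ly6C hi monocytes, from -0.12 to -0.00 and -0.02 against Slc29a3-/- Tlr7-/- mice, and the interaction medians from 0.15 and 0.20 to between -0.00 and 0.03. The share of higher genes among those called moved with it, from 36.4% to 52.5% and 50.3% in the first comparison, from 49.3% to 65.8% and 62.7% in the second, from 21.4% to 35.1% and 38.5% for Slc29a3-/- Tlr7-/- against WT Ly6C hi, from 28.2% to 39.3% and 51.0% for the same in Ly6C low, from 35.5% to 44.9% and 46.03% for the subsets of Slc29a3-/- Tlr7-/- mice, from 53.3% to 36.7% and 37.3% for the interaction against WT, and from 49.4% to 29.4% and 28.4% for that against Slc29a3-/- Tlr7-/- mice.

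With the replicate block, Cd36 (adjusted P = 0.0593) and Mrc1 (adjusted P = 0.0882) lost their calls between Slc29a3-/- and Slc29a3-/- Tlr7-/- Ly6C low monocytes, leaving 1 member called of 3, and no other call of a member changed. In the fits with the block the count of all genes moved from 154 to 43 for Slc29a3-/- Tlr7-/- against WT Ly6C hi. Whether the numbers pair mice was not shown for any groups, the WT subsets included. Every sample correlated best with its own number in none of the group pairs.

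From WT replicate 4 alone, the members called fell from 5 to 0 (Slc29a3-/- against WT, Ly6C hi), from 2 to 0 (the same, Ly6C low), from 2 to 1 (WT subsets) and from 2 to 0 (interaction against WT), and all genes called were 156, 35, 646 and 23, with 0 for Slc29a3-/- Tlr7-/- against WT in either subset (from 154 and 915). The thresholds of the study called 2 members in place of 0 (Slc29a3-/- Tlr7-/- against WT, Ly6C hi), 5 in place of 3 (Slc29a3-/- against Slc29a3-/- Tlr7-/-, either subset), 4 in place of 2 (Slc29a3-/- against WT in Ly6C low, the WT subsets and both interactions) and 1 in place of 0 (Slc29a3-/- Tlr7-/- against WT, Ly6C low). All genes then numbered 1326 in place of 154 (Slc29a3-/- Tlr7-/- against WT, Ly6C hi), 1361 in place of 479, 2135 in place of 915 and 1414 in place of 199 (Ly6C low, Slc29a3-/- against WT, Slc29a3-/- Tlr7-/- against WT, and between the mutants), and 2233 in place of 977 and 2498 in place of 991 for the interactions. With no filter, members called rose from 5 to 6 (Slc29a3-/- against WT, Ly6C hi), where Timd4 (adjusted P = 0.0465) and Marco (adjusted P = 0.0318), left out by the filter, were called and Cd68 was not (adjusted P = 0.0809). They fell from 3 to 2 (mutants, Ly6C hi, without Cd68, adjusted P = 0.0785), from 3 to 0 (mutants, Ly6C low), from 4 to 2 (subsets of Slc29a3-/- Tlr7-/- mice) and from 2 to 1 (interaction against Slc29a3-/- Tlr7-/-), and all genes were 45 (from 154), 1244 (mutants, Ly6C hi, from 2150), 270 (from 479) and 383 (from 915). The pseudocount gave 44 genes (from 154) and 1 member for the last interaction.

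Leaving out 1 library gave 1936 to 2996 genes for Slc29a3-/- against WT Ly6C hi, 1 to 1162 genes and 0 to 1 members for Slc29a3-/- Tlr7-/- against WT Ly6C hi, and 1308 to 2210 genes and 2 to 5 members between the mutants in Ly6C hi monocytes. The Ly6C low comparisons gave 199 to 1624 genes and 2 to 3 members (Slc29a3-/- against WT), 100 to 2092 genes (Slc29a3-/- Tlr7-/- against WT) and 90 to 434 genes and 0 to 3 members (mutants). The WT subsets gave 2 to 4 members, those of Slc29a3-/- Tlr7-/- mice 3 to 5 members, the interaction against WT 647 to 1236 genes, and that against Slc29a3-/- Tlr7-/- mice 565 to 1228 genes and 1 to 3 members.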

Other observations

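Libraries of 1 group differed in the same direction for several members. Of the 4 Slc29a3-/- Ly6C low libraries, replicate 1 was the lowest for Mertk (3.90 RPM), Axl (5.96 RPM), Timd4 (0.159 RPM), Marco (0.795 RPM), Mrc1 (3.74 RPM) and Cd5l (34.3 RPM), and the highest for Cd36 (246 RPM) and Msr1 (0.636 RPM). Replicate 4 was the highest for Mertk, Axl, Marco, Mrc1 and Cd5l. Of the Slc29a3-/- Tlr7-/- Ly6C hi libraries, replicate 2 was the lowest for Mertk (0.325 RPM), Marco (0.325 RPM), Cd36 (11.53 RPM) and Cd5l, which was at 0. Within Ly6C low libraries of all genotypes, Cd5l and Spic had a Pearson's r of 0.86 and within Ly6C hi libraries of -0.28, each over 12 libraries that share depth and groups. With Cd5l, the r in the same order was 0.30 and -0.37 for Hmox1, 0.77 and 0.02 for Slc40a1, and 0.78 and 0.37 for Vcam1.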
